A study of Mus musculus with 11 samples.

Results

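CpG-rich promoters that serve a single protein-coding gene were examined in the open chromatin of MPC2 cells. A region of the deposited list was a member when it overlapped the annotated start of a protein-coding gene, when the 1 kb centred on that start had a GC content of at least 55% and an observed over expected CpG ratio of at least 0.6, and when no other coding gene started within 1 kb on the opposite strand. This left 5596 members of 94963 regions, or 5.89% of the list. Of these, 5533 lay over 1 eligible start, 59 over 2 and 4 over 3, giving 5663 promoters with a region. The members took 12.5% of the length covered by the list and 25.6% of its summed CPM (cut counts scaled to the library total).

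Accessibility was measured by ATAC-seq, which cuts open DNA with the Tn5 transposase and counts the cuts. MPC2 is a clone of conditionally immortalised mouse mesenchymal cells, so that every culture came from 1 clone. The 11 cultures comprised 3 of undifferentiated cells (MSCs) given DMSO, 3 of MSCs given FG-4592, 2 of osteocytes given DMSO and 3 of osteocytes given FG-4592. Osteocytes were MPC2 cells kept in osteogenic medium for 3 weeks. FG-4592 (Roxadustat), which inhibits the prolyl hydroxylases of hypoxia-inducible factor (HIF), was used at 50 uM for 48 hours. The list gave 1 level per region over all cultures, read from its values as the average log2 CPM, and per-culture levels were not analysed here. The values below therefore describe MSCs and osteocytes with and without drug together, carry no replicate error and say nothing of a response to FG-4592. The depth of each culture was unknown.

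In the mouse, most promoters of broadly used genes lie in CpG islands, stretches of DNA that escape methylation and keep a high density of the CpG dinucleotide. Such promoters usually lack a TATA box and begin transcription at dispersed positions, and the factors that bind them include Sp1 at GC boxes, ETS factors, NRF1, CREB at cAMP response elements (CRE), NF-Y at CCAAT boxes and YY1. Islands at developmental regulators are known Polycomb targets in cells that do not use the gene, and islands at some germ line genes are methylated in body cells.

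The 100 bases before the start of 7 members are printed as examples of this sequence class. Each had the highest level per length among the members that held its motif in these 100 bases, outside a chromosome left out of sequence printing. Capitals mark the motif, on either strand. The GC box GGGCGG is shown at Osbp (oxysterol binding protein), the ETS site CCGGAAG at Hdgfl2, the NRF1 site CGCATGCG at Hexim1 (an inhibitor of the elongation factor P-TEFb), the CRE TGACGTCA at Rab5a (a GTPase of early endosomes), the CCAAT box CCAATCA at Gsk3b (a kinase of the Wnt pathway), the E-box CACGTG at Wipi1 (an autophagy protein) and the ZBTB33 site CTCGCGAG at Asph. The sequences are from GRCm38 (mm10). Osbp is shown from chr19:11965841-11965940 (+), Hdgfl2 from chr17:56079534-56079633 (+), Hexim1 from chr11:103116131-103116230 (+), Rab5a from chr17:53479134-53479233 (+), Gsk3b from chr16:38088901-38089000 (+), Wipi1 from chr11:109611968-109612067 (-) and Asph from chr4:9669345-9669444 (-).
Osbp: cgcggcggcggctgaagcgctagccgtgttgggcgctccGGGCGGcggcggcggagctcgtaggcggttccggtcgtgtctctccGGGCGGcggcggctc
Hdgfl2: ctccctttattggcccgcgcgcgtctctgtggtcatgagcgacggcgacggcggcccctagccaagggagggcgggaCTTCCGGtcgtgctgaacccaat
Hexim1: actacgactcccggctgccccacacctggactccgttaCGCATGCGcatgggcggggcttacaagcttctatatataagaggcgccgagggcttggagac
Rab5a: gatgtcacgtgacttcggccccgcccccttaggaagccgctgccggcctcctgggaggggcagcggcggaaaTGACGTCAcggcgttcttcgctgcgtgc
Gsk3b: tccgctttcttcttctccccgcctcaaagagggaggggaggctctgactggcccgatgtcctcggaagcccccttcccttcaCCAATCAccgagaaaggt
Wipi1: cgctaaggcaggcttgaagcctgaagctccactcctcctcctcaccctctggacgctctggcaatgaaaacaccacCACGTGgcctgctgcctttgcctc
Asph: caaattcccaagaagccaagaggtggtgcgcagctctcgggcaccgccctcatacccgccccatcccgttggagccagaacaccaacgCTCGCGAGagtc

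Most CpG-rich single promoters were open. A region covered 5663 of 6765 such starts, or 83.7% (95% Wilson interval 82.8% to 84.6%, for counting error only). The share was 27.6% (26.8% to 28.4%) among 12791 CpG-poor coding starts and 87.2% (85.8% to 88.5%) among 2382 divergent starts, those with another coding start on the opposite strand within 1 kb. Over all 21938 coding starts it was 51.4%. Of the 1102 CpG-rich single starts that lacked a region, 341 (30.9%) had a region elsewhere within 1 kb.

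Promoter class and level were compared per length, since a wider region collects more cuts. The level per length is given as log2 CPM per kb, the log2 CPM minus the log2 of the width in kb. Members had a median level of 5.36 log2 CPM (quartiles 4.69 and 5.94, range 0.10 to 8.40), a median width of 1228 bp (quartiles 1011 and 1483 bp) and a median level per length of 5.00 log2 CPM per kb (quartiles 4.43 and 5.51). The medians were 4.41 log2 CPM, 977 bp and 4.37 log2 CPM per kb over CpG-poor starts and 5.59 log2 CPM, 1297 bp and 5.18 log2 CPM per kb over divergent starts, against 3.25 log2 CPM per kb over the whole list. Members thus exceeded the CpG-poor promoter regions by 0.62 log2 CPM per kb (95% interval 0.57 to 0.68). They lay 0.18 below the divergent ones (interval of the difference -0.24 to -0.12). Each interval was combined from the order-statistic intervals of both medians. These intervals cover the error of the medians over regions, not the spread over cultures and not the choice of limits. With limits of 60% and 0.75 the lead over CpG-poor promoter regions was 0.40, and with 50% and 0.5 it was 0.93 log2 CPM per kb. No test was run, because 1 pooled value per region allows none.

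**Figure D1:**
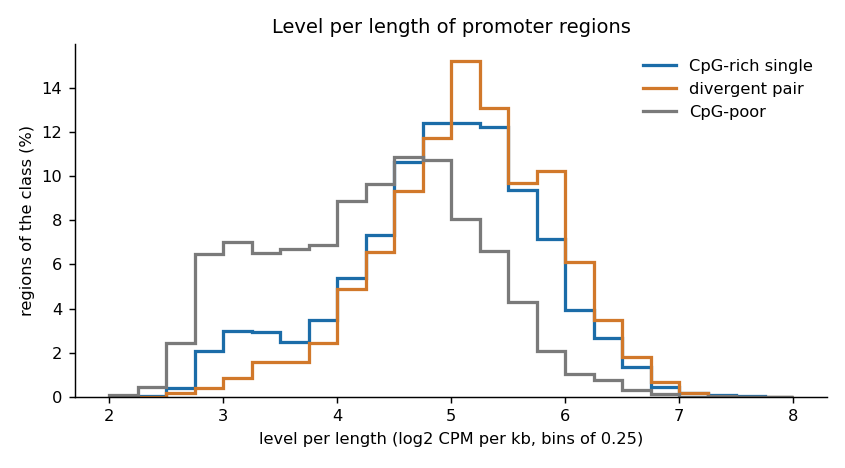
The plot of level per length shows log2 CPM per kb on the x axis, in bins of 0.25, and the percent of regions of each class on the y axis, for 5596 CpG-rich single, 3457 CpG-poor and 1064 divergent promoter regions. The CpG-rich class has a main peak near its median of 5.00 and a low shoulder under 3.5, which is larger in the CpG-poor class and smaller in the divergent class.

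Members formed a broad main peak with a small group of low levels beside it. The bin from 3.00 to 3.25 log2 CPM per kb held 3.00% of members, the bin from 3.5 to 3.75 held 2.47% and the bin from 5.00 to 5.25 held 12.4%. Under 3.5 log2 CPM per kb, a limit set after the values were seen, lay 472 members (8.43%), against 796 (23.0%) of CpG-poor and 32 (3.01%) of divergent promoter regions. Across members, log2 width and log2 CPM rose together (Pearson r of 0.738, n = 5596), and log2 width with log2 CPM per kb had an r of 0.380. These correlations are across regions that share the same cultures, and both measures come from the same cuts.

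The highest levels belonged to Gsk3b at 8.40 log2 CPM, Zbtb20 (a zinc finger repressor) at 8.31, the GC box factors Sp4 at 8.01 and Sp1 at 7.91, and Kpnb1 (importin beta, which carries proteins into the nucleus) at 7.77. Gsk3b and Zbtb20 are on chromosome 16, where the 193 promoters with a region had the highest median of any chromosome, 5.50 log2 CPM per kb. The other autosomes ranged from 4.76 to 5.25 log2 CPM per kb, and the X chromosome had 4.57. Per length, Khsrp (an RNA binding protein of splicing and mRNA decay) led with 7.70 log2 CPM per kb, followed by Osbp with 7.38, Gsk3b with 7.36, Zbtb20 with 7.35 and Mtmr4 (a phosphoinositide phosphatase) with 7.26. The regions of Khsrp and Osbp lay almost wholly before the start, reaching 900 and 1012 bp upstream and 146 and 38 bp downstream.

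The lowest levels came from narrow regions. Nxnl2 (a thioredoxin-like gene of photoreceptors) had 0.10 log2 CPM, Neurog1 (a proneural transcription factor) 0.24, Galr1 (a galanin receptor) 0.36, Cdo1 (cysteine dioxygenase) 0.37 and Npy (neuropeptide Y) 0.58. Their regions were 200 to 221 bp wide, at or just above the minimum width of 200 bp in the list. Per length, Nxnl2 was again last with 2.42 log2 CPM per kb, followed upward by Cds1 with 2.50, Pde1c (a calmodulin-dependent phosphodiesterase) with 2.52, St8sia1 (a ganglioside sialyltransferase) with 2.54 and Neurog1 with 2.55.

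Member regions were not centred on the start. The median reach was 456 bp upstream (quartiles 314 and 635 bp) and 717 bp into the gene (quartiles 541 and 923 bp), and 74.4% of the 5663 promoters reached farther into the gene. CpG-poor promoters leaned the same way with shorter arms, 323 bp upstream and 570 bp downstream, and 71.3% reached farther down. Divergent promoters had arms of 644 and 622 bp and 47.5% reached farther down, where the arm upstream also holds the partner's start. The median reach differed more between the 3 classes upstream than into the gene.

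**Figure D2:**
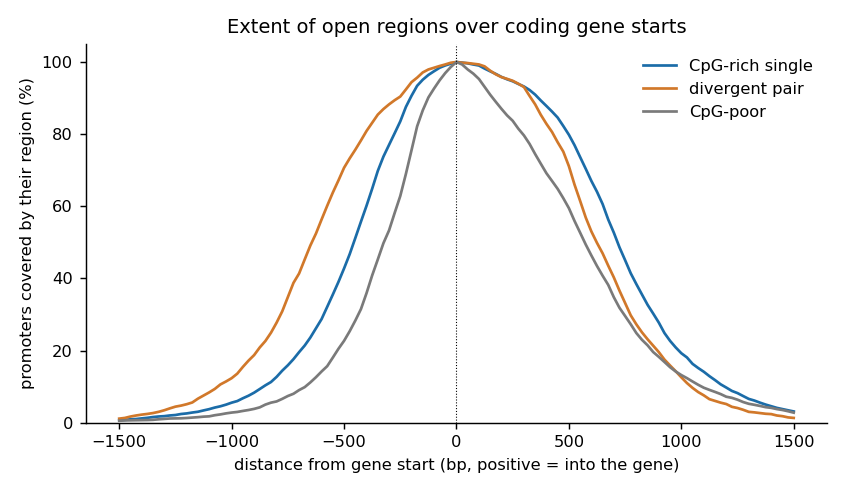
The plot of extent shows the distance from the gene start in bp on the x axis, positive into the gene, and on the y axis the percent of promoters of each class whose start region covers that position. CpG-rich single promoters fall off more slowly into the gene than upstream, divergent pairs are close to symmetric, and CpG-poor promoters are narrower on both sides.

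A long noncoding RNA started on the opposite strand within 1 kb at 864 of the CpG-rich single promoters, of which 735 (85.1%, 82.5% to 87.3%) had a region, against 83.5% (82.5% to 84.4%) of the 5901 others. With a noncoding partner the median was 5.11 log2 CPM per kb and the upstream reach 512 bp, and without it 4.98 log2 CPM per kb and 448 bp. The 5663 promoters were also divided into 4 equal groups by log2 CPM per kb, bounded at 4.44, 5.00 and 5.51. From the lowest to the highest group the median upstream reach was 348, 457, 475 and 539 bp, whereas the reach into the gene was 649, 770, 743 and 683 bp, and 9.82%, 12.6%, 13.9% and 15.6% had a noncoding partner. Members lay a median of 6008 bp from the next region of the list, and 41.5% had another region within 5 kb, against 45.3% of CpG-poor and 31.0% of divergent promoter regions.

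Base composition was used by the rule, and its range within the class was described with no test. The share of promoters with a region was 69.3% (65.7% to 72.6%) in the lowest of 10 equal bins of the CpG ratio (0.60 to 0.65) and between 84.3% and 90.1% in the upper 7 bins. Across 10 bins of GC content it stayed between 81.6% and 85.3%. The median width rose with GC content, from 1087 bp in the lowest bin to 1510 bp in the highest, while the level per length ranged from 4.94 to 5.07 log2 CPM per kb. Spearman correlations across the 5663 promoters were -0.005 between log2 CPM per kb and GC content and 0.10 with the CpG ratio. Just inside the GC limit, within 1 percentage point, 84.5% of 335 promoters had a region with a median of 4.95 log2 CPM per kb, and just outside it 85.9% of 306 with 4.90. Just inside the CpG limit, within 0.02, 62.5% of 251 promoters had a region with a median of 4.89 log2 CPM per kb, and just outside it 72.0% of 218 with 4.59.

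Gene groups differed widely in the share of their CpG-rich single promoters that were open. All promoters of this class were covered for the cytosolic ribosomal proteins (47 of 47), the mitochondrial ribosomal proteins (17 of 17), the proteasome (15 of 15) and the HIF target genes (20 of 20). The translation initiation factors had 29 of 32 (90.6%), the nuclear subunits of oxidative phosphorylation 23 of 26 (88.5%) and the zinc finger genes named Zfp 98 of 106 (92.5%). The share over the whole class was 83.7%, and no test was run on the lists.

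**Figure D3:**
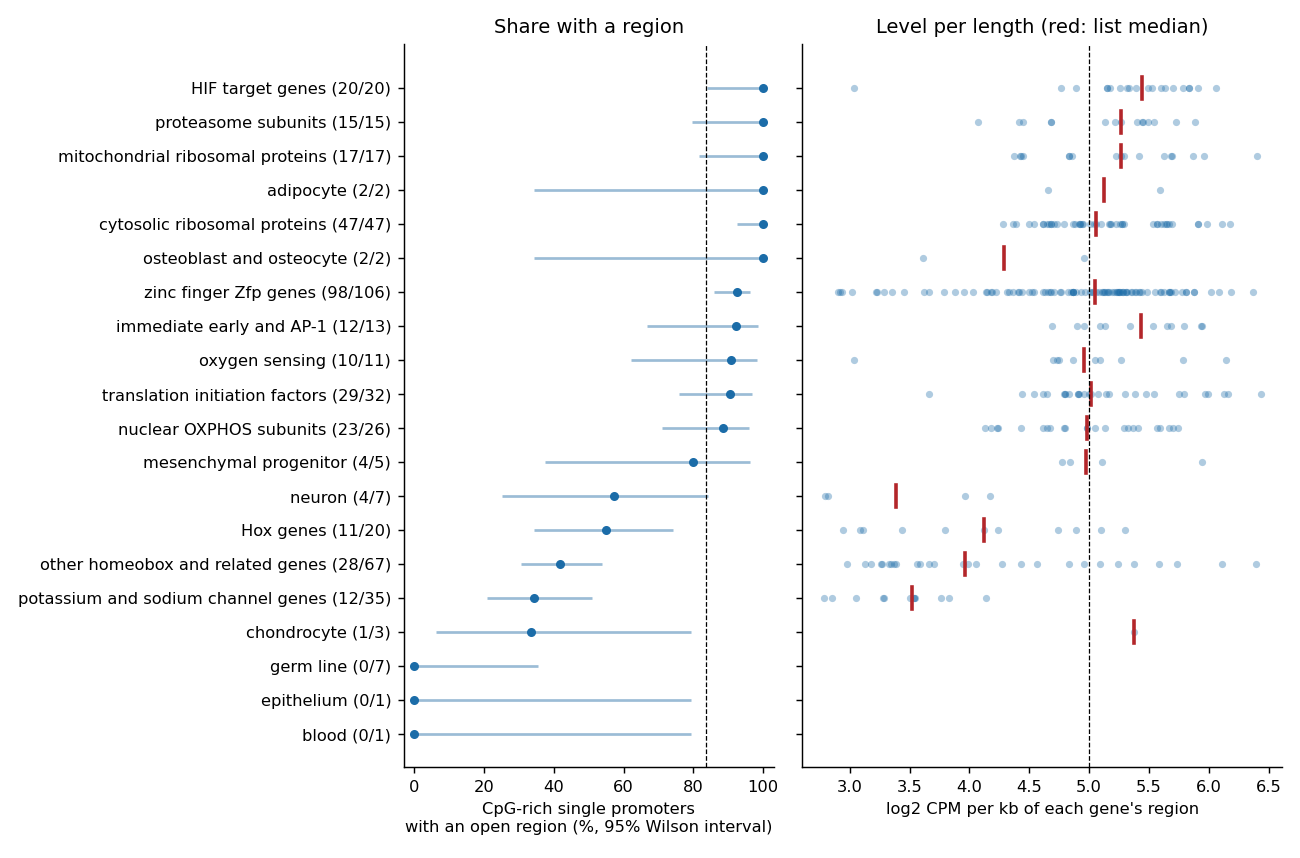
The plot of gene groups shows, at left, the percent of each list's CpG-rich single promoters with a region and its 95% Wilson interval, with the number in brackets, and at right each gene's log2 CPM per kb with the list median in red. The dashed lines are the values of the whole class, 83.7% and 5.00 log2 CPM per kb. The housekeeping lists lie at or above the dashed share, and developmental, channel and germ line lists lie below it.

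Among housekeeping genes the list medians lay from 4.99 to 5.27 log2 CPM per kb, against 5.00 for the class. In log2 CPM, without the length, the proteasome lay at -0.030 and the cytosolic ribosomal proteins at -0.16 from the class median. The other lists named in this paragraph kept their side of it. The cytosolic ribosomal proteins had a median of 5.06, with Rps19 highest at 6.18, and the mitochondrial ribosomal proteins a median of 5.27, from Mrpl52 at 4.37 to Mrps16 at 6.40. The proteasome subunits had a median of 5.27 log2 CPM per kb, with Psmb4 lowest at 4.07 and Psmb3 highest at 5.88. The initiation factors had a median of 5.02 and ran from Eif3g at 3.67 to Eif1, which helps to select the start codon, at 6.43. The oxidative phosphorylation subunits had a median of 4.99, from Ndufc1 at 4.13 to Sdhb of complex II at 5.74 log2 CPM per kb. The Zfp genes, with a median of 5.04, spread farther than any of these, from Zfp185 at 2.90 to Zfp78 at 6.37.

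Developmental regulators and ion channels stood at the other end. Of 20 CpG-rich single promoters of Hox genes, which set position along the body axis, 11 (55%, 34.2% to 74.2%) had a region, with a median of 4.12 log2 CPM per kb. Hoxd13 was lowest at 2.94 and Hoxa7 highest at 5.30, and 7 of the 11 were in the lowest group of the class. The other homeobox, Pax, Sox, Gata and T-box genes had regions at 28 of 67 (41.8%, 30.7% to 53.7%), with a median of 3.97 log2 CPM per kb and 18 in the lowest group. Their highest levels came from Irx5 at 6.39, Irx3 at 6.11 and Irx2 at 5.74, members of the Iroquois family, whereas Irx1, Irx4 and Irx6 had no region over their start, and the lowest came from Nkx2-2 at 2.97. Potassium and sodium channel genes had regions at 12 of 35 (34.3%, 20.8% to 50.8%). All 12 were in the lowest group, and Kcnd2 was lowest at 2.78 log2 CPM per kb.

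The cell type lists covered few CpG-rich single promoters, which limits them as a check of the cells. Mesenchymal genes had 4 of 5 open, from the transcription factor Twist2 at 4.77 to the integrin chain Itgb1 at 5.94 log2 CPM per kb, with Twist1 at 5.11 and the chemokine Cxcl12 at 4.84, and Nt5e lacked a region. Among 15 osteoblast and osteocyte genes 13 had CpG-poor starts. The remaining pair was open, Alpl (tissue-nonspecific alkaline phosphatase) at 3.61 and Dlx5 at 4.96 log2 CPM per kb. The adipocyte regulators Pparg at 4.66 and Cebpa at 5.59 and the chondrocyte regulator Sox9 at 5.38 were open as well, while the cartilage matrix genes Acan and Col2a1 lacked a region. Neuronal genes had 4 of 7 open, all in the lowest group, namely Nefm at 2.79, Gad2 at 2.82, Tubb3 at 3.96 and Syn1 at 4.17 log2 CPM per kb. The single eligible blood gene, Tal1, a regulator of blood formation, and the single epithelial gene, Cdh1, had no region, but Tal1 had one with the starts of any coding transcript. Of 7 germ line promoters (Dazl, Ddx4, Mael, Stk31, Sycp1, Sycp3 and Tdrd1) 0 had a region, which allows a share of up to 42.9%, against 1 of 8 genes with the starts of any coding transcript.

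Immediate early genes, which include the subunits of AP-1, were open at 12 of 13 CpG-rich single promoters, with Egr2 lacking a region (16 of 16 genes with the starts of any coding transcript). Their median was 5.44 log2 CPM per kb and 6 of the 12 were in the highest group of the class. The AP-1 subunits were Junb at 5.94, Jun at 5.93, Fosl2 at 5.79, Jund at 5.54, Fos at 5.13, Fosb at 4.90 and Fosl1 at 4.69 log2 CPM per kb. Myc had 5.65 and Klf4 5.68.

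The oxygen sensing genes were examined next, because FG-4592 acts on this pathway. In it, the prolyl hydroxylases Egln1 (Phd2), Egln2 and Egln3 mark the alpha subunits of HIF, the Vhl complex with Eloc, Elob, Cul2 and Rbx1 directs their destruction, and alpha subunits that escape pair with Arnt. Of 11 CpG-rich single promoters of this list 10 were open, with Arnt2 lacking a region (12 of 12 genes with the starts of any coding transcript), and their median of 4.96 log2 CPM per kb was close to that of the class. Among the hydroxylases Egln1 had 4.72 log2 CPM, 1012 bp and 4.70 log2 CPM per kb, Egln2 had 5.05 log2 CPM per kb and Egln3 had 3.04, far below its paralogs. Egln1 combined a GC content of 77.3% with a CpG ratio of 1.01. The ligase subunits were Rbx1 at 6.14, Eloc at 5.78, Cul2 at 5.09, Elob at 4.86 and Vhl at 4.75 log2 CPM per kb, and the HIF subunits were Epas1 (HIF2 alpha) at 5.26 and Arnt at 4.73. The annotated start of Hif1a was not eligible, with a GC content of 41.6% and a CpG ratio of 0.33, and had no region over it. This is the outermost annotated start of the gene, and the values do not describe its other transcript starts.

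HIF target genes, a list that shares Egln3 with the pathway list, had a list median above that of the class in level per length, by 0.44 log2 CPM per kb, and by 0.22 in log2 CPM. All 20 eligible promoters were open (24 of 26 genes with the starts of any coding transcript), with a median of 5.44 log2 CPM per kb, and 9 of the 20 were in the highest group. The highest was Kdm3a (a histone H3K9 demethylase) at 6.06, followed by P4ha1 (a collagen prolyl hydroxylase) at 5.91, the mitophagy receptor Bnip3l at 5.84, the glycolytic regulator Pfkfb4 at 5.83 and Ddit4 (an inhibitor of mTORC1) at 5.79. The glucose transporter Slc2a1 had 5.63 and Pgk1 5.60 log2 CPM per kb. Vegfa had the widest region of the 20, 2472 bp and 6.46 log2 CPM, which came to 5.15 log2 CPM per kb. Ero1l (an oxidase of disulfide formation) at 4.89, Tfrc (the transferrin receptor) at 4.77 and Egln3 at 3.04 were the lowest. Whether these levels moved with FG-4592 cannot be read from pooled values.

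Of the 12 genes of the study that were looked up, Fgf23, Gpr35, Tnfsf11 and Hif1a fell outside the class because their outermost annotated starts were CpG-poor. Other transcript starts of these genes are not described here. Fgf23 had a GC content of 50.3% and a CpG ratio of 0.18, with a region of 679 bp at 2.89 log2 CPM or 3.45 log2 CPM per kb. Gpr35 had a GC content of 52.3% and a CpG ratio of 0.13, and Tnfsf11 (RANKL) a CpG ratio of 0.56, and neither had a region over its start.

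The 100 bases before 8 members are printed next for the pathway, since they set open promoters of HIF targets beside the lowest members of the class. Capitals mark, on either strand, the GC box GGGCGG, the CCAAT box CCAATCA, and the cores ACGTG and GCGTG of the hypoxia response element (HRE) that HIF binds. The windows on GRCm38 are chr8:124949325-124949424 (-) for Egln1, chr12:54203861-54203960 (-) for Egln3, chr14:45318772-45318871 (-) for Ero1l, chr4:119108611-119108710 (+) for Slc2a1, chr6:71632991-71633090 (-) for Kdm3a, chr16:32608820-32608919 (+) for Tfrc, chr13:51170922-51171021 (+) for Nxnl2 and chr13:56252164-56252263 (-) for Neurog1.
Egln1: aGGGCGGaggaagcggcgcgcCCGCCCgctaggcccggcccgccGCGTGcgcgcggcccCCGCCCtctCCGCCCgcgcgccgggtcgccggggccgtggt
Egln3: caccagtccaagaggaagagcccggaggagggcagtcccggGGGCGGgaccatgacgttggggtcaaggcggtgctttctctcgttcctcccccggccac
Ero1l: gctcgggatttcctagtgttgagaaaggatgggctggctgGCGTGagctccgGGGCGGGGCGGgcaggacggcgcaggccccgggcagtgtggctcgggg
Slc2a1: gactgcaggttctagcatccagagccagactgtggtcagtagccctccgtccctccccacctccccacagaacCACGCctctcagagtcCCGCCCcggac
Kdm3a: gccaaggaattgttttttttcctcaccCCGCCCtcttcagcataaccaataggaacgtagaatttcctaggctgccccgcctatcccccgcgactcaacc
Tfrc: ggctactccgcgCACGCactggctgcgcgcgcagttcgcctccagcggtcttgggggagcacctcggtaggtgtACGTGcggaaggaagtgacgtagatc
Nxnl2: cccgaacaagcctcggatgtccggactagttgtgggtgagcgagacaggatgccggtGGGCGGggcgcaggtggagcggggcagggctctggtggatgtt
Neurog1: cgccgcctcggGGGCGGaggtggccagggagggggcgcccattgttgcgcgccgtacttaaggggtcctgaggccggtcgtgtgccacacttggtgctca
Egln1 held 5 marked sites in this window, 4 of them GC boxes and 1 a GCGTG core. Ero1l held 3 marked sites, Slc2a1 and Tfrc 2 each, and Kdm3a, Egln3, Nxnl2 and Neurog1 1 each. Kdm3a at 6.06 and Nxnl2 at 2.42 log2 CPM per kb thus held the same number of marked sites. The shorter letters CCAAT, which were not marked, were in the window of Kdm3a and not in that of Nxnl2.

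Motifs were counted on both strands from 250 bp before to 50 bp after the start. A match describes letters and not a bound factor. Of the 14 motifs 9 contain a CpG, and the class was chosen on GC and CpG content, so that their shares against all coding promoters follow in part from the rule and are given as a description. The GC box GGGCGG was present in 78.1% of the 5663 member promoters, in 69.1% of the 1102 CpG-rich single promoters that lacked a region and in 43.0% of all coding promoters of the same length. The ETS site CCGGAAG was found in 16.9% of members (15.9% to 17.9%) against 7.17% (5.79% to 8.85%) of those without a region and 10.8% of all coding promoters, and reached 26.7% in open divergent promoters. The NRF1 site CGCATGCG was in 4.68% of members, 1.91% of those without a region and 2.61% of all, and the CRE TGACGTCA in 4.01%, 1.72% and 2.43%. The YY1 site AAGATGGC had 4.13%, 2.00% and 2.92%, and the ZBTB33 site CTCGCGAG 2.65%, 1.18% and 1.21%. For these 6 motifs the 95% intervals of open and uncovered promoters did not overlap in this window. In the last 60 bp before the start they overlapped for the CRE, the YY1 site and the ZBTB33 site, and from 500 bp before to 500 bp after it the difference for the GC box was 2.26 percentage points. In the last 60 bp the difference was 4.31 points for the ETS site and 1.06 for the NRF1 site, against 9.71 and 2.77 in the main window.

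The remaining motifs are given in the same order of promoters. The E-box CACGTG was in 11.5% of members, 12.1% of uncovered promoters and 7.75% of all coding promoters, and the E2F site TTTCCCGC in 2.38%, 2.27% and 1.34%. The ZNF143 site ACTACAATT was in 29 members (0.51%), in 0 of 1102 uncovered promoters, which allows a share of up to 0.272% (Wilson limit 0.35%), and in 0.50% of all. The TATA box TATAAA, searched as written only, was in 3.13% of members, 5.44% of uncovered promoters and 8.68% of all coding promoters. The AP-1 site TGACTCA was in 2.58% of members (2.2% to 3.02%), 1.45% of uncovered promoters (0.90% to 2.35%) and 5.69% of open CpG-poor promoters, against 4.59% of all.

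**Figure D4:**
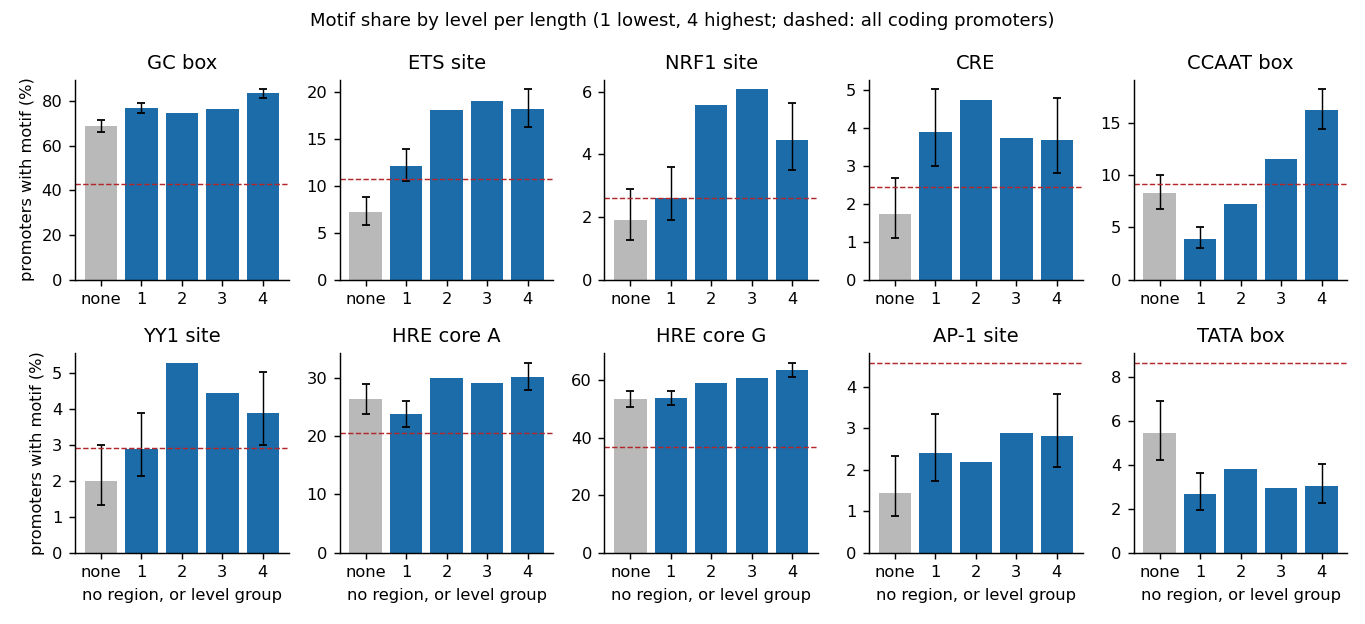
The plot of motif shares shows, for 10 motifs, the percent of CpG-rich single promoters with the motif among the 1102 without a region (grey) and in the 4 level groups of the 5663 with one (blue, 1 lowest), with 95% Wilson intervals on the grey, lowest and highest bars and the share of all coding promoters dashed. The CCAAT box rises through the 4 groups from 3.88% to 16.2%, whereas the ETS and NRF1 sites are higher in groups 2 to 4 than in group 1 in this window. In the last 60 bp before the start the highest group minus the lowest gave 0.14 percentage points for the ETS site and -0.28 for the NRF1 site.

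The CCAAT box, which NF-Y binds, had a larger difference in share between the lowest and highest level groups than the other 13 motifs in this window. In the last 60 bp before the start the difference was 4.94 percentage points and that of GCGTG was larger, 6.14 points. Its share was 9.69% of members, 8.26% of uncovered promoters and 9.11% of all coding promoters, so that it barely told open from uncovered promoters. Across the level groups it was 3.88% (3.00% to 5.02%), 7.20%, 11.5% and 16.2% (14.3% to 18.2%). Members with the box had a median of 5.38 log2 CPM per kb and those lacking it 4.96. In promoters grouped by copies of the 5 letters CCAAT on either strand the median was 4.88 log2 CPM per kb at 0 copies (3567 open promoters), 5.07 at 1 (1266), 5.41 at 2 (546), 5.50 at 3 (186) and 5.84 at 4 or more (98), while the share with a region went from 82.6% (81.4% to 83.7%) to 91.6% (84.8% to 95.5%). The median GC content of these classes lay between 61.3% and 63.2%. The box was more frequent in the highest than in the lowest level group in each of 3 equal bins of GC content, from 5.10% to 17.4% in the lowest, from 3.18% to 18.1% in the middle and from 3.5% to 13.2% in the highest, where group 2 had 3.02%. Gsk3b, printed above with its box 18 bases before the start, belonged to the highest group.

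Promoters grouped by copies of the GC box spanned a smaller range of levels. With 0 copies 78.5% (76.4% to 80.5%) of promoters had a region at a median of 4.92 log2 CPM per kb, and with 6 or more copies 86.9% (82.8% to 90.1%) at 5.09. The GC content rose with the copies, from a median of 59.9% to 68.5%.

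The HRE core ACGTG, which the E-box contains, was in 28.2% of members, 26.3% of uncovered promoters and 20.5% of all coding promoters, and GCGTG in 59.4% (58.2% to 60.7%), 53.5% (50.6% to 56.5%) and 36.8%. From the lowest to the highest level group ACGTG went from 23.7% to 30.2% and GCGTG from 53.9% to 63.8%. The difference of 6.43 percentage points for ACGTG was 2.47 in the last 60 bp before the start, and that of 9.89 for GCGTG was 2.05 from 500 bp before to 500 bp after it. Among the open HIF target promoters 11 of 20 (55%) held ACGTG and 13 of 20 (65.0%) held GCGTG. Among the open oxygen sensing promoters the counts were 3 of 10 and 6 of 10. Both cores were in 8 of the 20 HIF targets, Slc2a1, Bnip3, Plod2, P4ha1, Ddit4, Ero1l, Bnip3l and Tfrc, with the most copies, 5, at Bnip3. Neither core was in 4 of the 20, Kdm3a, Vegfa, Pfkfb3 and Gpi1, with levels of 6.06, 5.15, 5.17 and 5.49 log2 CPM per kb. Egln2 held 3 copies of each core.

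Motifs were also counted within the gene groups, with no test. The ETS site was in 18 of 47 cytosolic ribosomal protein promoters (38.3%), 9 of 17 of the mitochondrial ones (52.9%), 6 of 15 of the proteasome, 10 of 29 of the initiation factors (34.5%) and 26 of 98 Zfp promoters (26.5%), against 16.9% of all members. It was in 4 of 23 promoters of the oxidative phosphorylation subunits (17.4%) and in 2 of 20 of the HIF targets. It was in 0 of 11 open Hox promoters, which allows a share of up to 27.3%, and in 0 of 12 open channel and 0 of 12 open immediate early promoters, which allows up to 25.0%, so that the share of all members lies within these limits. The CCAAT box was in 6 of 28 open promoters of the other homeobox and related genes (21.4%) and in 0 of 17 of the mitochondrial ribosomal proteins, which allows up to 17.6%, against 9.69% of all members. The AP-1 site TGACTCA was in 0 of the 12 immediate early promoters and in 2.58% of all members, a share too low for 12 promoters to tell apart from 0.

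The motifs kept different distances from the start. In bins of 20 bp over the member promoters, copies of the CCAAT box were most frequent from 60 to 40 bp before the start (104 of 724 copies from 300 bp before to 200 bp after). The TATA box was most frequent from 40 to 20 bp before the start, with 44 copies, and the CRE in the last 20 bp, with 46. GC boxes were about equally frequent in the bins of the last 60 bp before the start, with 1409, 1425 and 1397 copies. ETS sites were most frequent in the first 20 bp of the gene, with 203 copies, close to the 192 in the last 20 bp before the start. YY1 sites were most frequent from 20 to 40 bp into the gene, with 84, and 297 were as written in the direction of the gene against 107 on the complement.

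**Figure D5:**
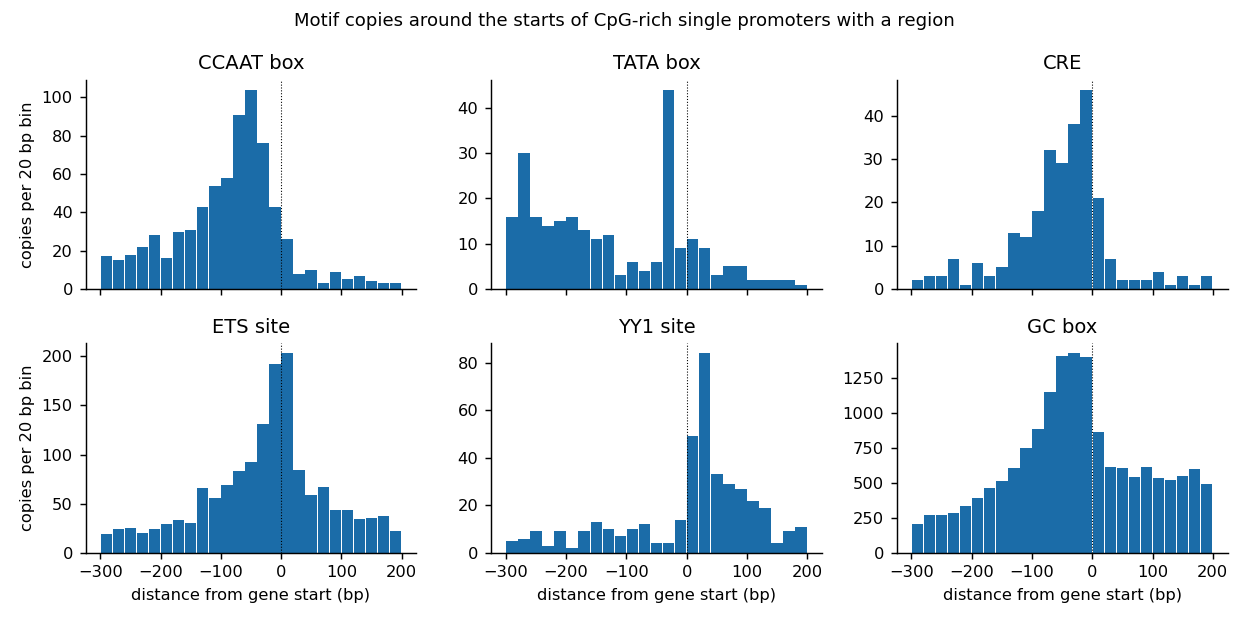
The plot of motif positions shows the distance from the gene start in bp on the x axis, from 300 before to 200 after, and the number of copies per 20 bp bin in member promoters on the y axis, for 6 motifs. CCAAT boxes peak upstream, TATA boxes stand out in 1 bin of 44 copies, CRE, GC box and ETS copies gather at the start, and YY1 copies lie just inside the gene.

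The 44 members with a TATA box from 40 to 20 bp before the start were a mixed set, with a median of 5.13 log2 CPM per kb. Zfp36l2 (an mRNA decay factor) led with 6.37, followed by Fam83d at 5.96, Azin1 (an antizyme inhibitor) at 5.95, Junb at 5.94 and Polr2a (the large subunit of RNA polymerase II) at 5.85 log2 CPM per kb. The set included the HIF target Ndrg1 at 5.70, Fos at 5.13, Ccn1 at 5.54, Cebpa at 5.59 and the tendon factor Scx at 4.93, and at its low end the tissue-restricted genes Areg at 2.75, Nefm at 2.79 and Sim1 at 2.86.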

How the data were processed

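ATAC-seq libraries of 11 MPC2 cultures were trimmed by the authors with Trim Galore and aligned to mm10 with Bowtie2, duplicates were removed with Picard 2.17.8, and peaks were found with MACS2 2.2.7.1 and merged. Blacklisted regions were taken out, cuts were counted with pyDNase, regions with few cuts were left out, and counts were scaled by TMM in edgeR 3.24.3. The authors removed 1 library for quality. A Tn5 offset is not given in the sources used here. The deposited value per region was read as log2 CPM averaged over all cultures, since 460 values were below 0 and the values, once exponentiated, summed to 1012761. Merged regions are as wide as the peaks under them together.

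Gene starts were taken from GENCODE vM21 on GRCm38, and coordinates are 1-based. No level per culture was analysed, so no groups were compared and no test was run. Shares carry 95% Wilson intervals, except that a share of 0 is given in the text with the limit of 3 counts over n, which differs from the Wilson limit plotted. Medians of promoter classes carry order-statistic intervals, and the interval of a difference was combined from those of both medians. The classification was tested on simulated data. The members, lists and motifs were chosen with earlier results of these data known. Genes were named as the 5 highest and lowest by each level, the highest and lowest of each list, all oxygen sensing genes, the top member per motif and 12 genes of the study chosen here, and 2 genes that this rule names are not reported here. Further genes, among them the AP-1 subunits, the Iroquois genes, other HIF targets and the members with a TATA box, were named after their values were seen. Python 3.11.15, numpy 2.4.6, pandas 2.3.3, scipy 1.17.1 and matplotlib 3.10.9 were used.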

Additional observations from a re-analysis of the deposited data

How the results depend on the processing

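The 7 summary values were recomputed under 7 alternatives, and the differences between promoter classes kept their direction in each. Of the 49 recomputed values, 28 stayed within 1.5 times (for the count) or inside the 95% interval of the reported value and 21 did not. Stricter limits (GC of at least 60%, CpG ratio of at least 0.75) left 2848 members with a share of 86.6%, medians of 5.51 log2 CPM, 5.05 log2 CPM per kb and 1322 bp, and a lead of 0.40 log2 CPM per kb over CpG-poor promoter regions. Looser limits (50% and 0.5) gave 81.4%, 5.23 log2 CPM, 4.92 log2 CPM per kb, 1184 bp, a lead of 0.93 over CpG-poor and a difference of -0.26 from divergent promoter regions. Starts of any coding transcript gave 85.1%, 5.32 log2 CPM, 4.96 log2 CPM per kb and a lead of 0.78. Regions at least 500 bp wide gave 80.8%, 5.40 log2 CPM, 5.03 log2 CPM per kb, 1244 bp and a lead of 0.49. The distance to an opposite start and leaving out chromosomes 16 and X moved none of the 7 beyond these bounds.

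Per region rather than per kb, 4 lists changed side of the class median: oxygen sensing to 0.085 above it, mesenchymal genes to 0.51 above, cytosolic ribosomal proteins to -0.16 and the proteasome to -0.030, all in log2 CPM. The lead of the HIF targets went from 0.44 log2 CPM per kb to 0.22 log2 CPM. The NRF1 site, 1.84 percentage points more frequent in the highest than in the lowest level group, was at -0.28 in the last 60 bp before the start, and the ETS site went from 6.07 to 0.14 points there. The same difference for the CCAAT box, 12.3 points, was 4.94 points in those 60 bp, below the 6.14 of GCGTG, 14.8 from 500 bp before to 500 bp after, and 12.5 both without chromosomes 16, X and Y and in regions at least 500 bp wide (this pair was chosen after seeing the data). Open minus uncovered promoters went from 8.94 to 2.26 points for the GC box and from 5.90 to 1.49 for GCGTG in the 500 bp windows. In the last 60 bp it went from 9.71 to 4.31 points for the ETS site and from 2.77 to 1.06 for the NRF1 site. There it was 0.97 for the CRE, 0.15 for the YY1 site and 0.54 for the ZBTB33 site. With starts of any coding transcript, 1 of 8 germ line genes, the blood gene Tal1, 24 of 26 HIF targets, 12 of 12 oxygen sensing genes, 16 of 16 immediate early genes and 97.3% of initiation factors had a region. The cause of these changes was not tested.

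No paired analysis was possible because only pooled levels were at hand, and for the same reason leaving out a replicate and the comparisons between groups were not run. Depth per culture is unknown, so a start without a region is not shown to be closed.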
